A study of Mus musculus with 15 samples.

Results

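Chemokine receptors that place blood cells in the marrow, or let them leave it, were followed in mouse bone marrow with acute myeloid leukaemia (AML) and in normal marrow. The 9 receptors are Ccr1, Ccr2, Ccr6, Ccr7, Ccr9, Cx3cr1, Cxcr3, Cxcr4 and Cxcr5. They were chosen by gene symbol and are 9 of 38315 genes in the table of bulk total RNA sequencing. All 9 passed the filter on low values, which kept 18941 genes. Ccr6 passed it through whole marrow and some AML libraries, since no lineage-negative library reached the minimum of 10. The AML group held 7 bone marrow samples of the genotype NUP98-NSD1/FLT3-ITD. NUP98-NSD1 fuses a nucleoporin to a histone methyltransferase, and FLT3-ITD is a tandem duplication within a receptor tyrosine kinase. The reference groups were 4 wild-type whole marrow samples and 4 wild-type lineage-negative marrow samples, from which cells carrying antigens of mature lineages are taken out. No treatment is named for any group, and age, sex, the promoters of the transgenes and the lineage antibodies are not given in the sources used here. The labels do not say that the samples are separate animals, so p-values measure the spread between these samples.

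Chemokine receptors are G protein-coupled receptors in the cell membrane that steer migration toward a gradient of a small secreted protein. CXCR4 holds stem cells, neutrophils and B cell precursors in the marrow through CXCL12 made by stroma, and CXCR2 opposes it in neutrophils leaving for the blood. CCR2 takes classical monocytes out of the marrow, whereas CX3CR1 marks monocytes that patrol vessels and their dendritic cell and macrophage relatives. CCR7 and CXCR5 guide lymphocytes and dendritic cells to the T cell zone and the follicle of lymphoid organs, and CCR9, CCR6 and CXCR3 serve homing to gut, mucosa and inflamed tissue.

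Values are normalized counts, which are estimated reads divided by a size factor for each library. Estimated depth was 20.3 to 35.1 M reads (M, mega) in AML, 11.4 to 17.2 M in whole marrow and 20.3 to 28.1 M in lineage-negative marrow. A floor of 3 reads corresponded to a normalized count of 1.96 to 4.09. The whole marrow libraries stood apart. They had 7.12% to 15.7% of genes at 0, against 35.7% to 41.0% in lineage-negative marrow. Olfactory and vomeronasal receptor genes, taken as genes silent in marrow, had a mean of 1.72 to 3.30 normalized counts per kb of exon in whole marrow, while the lineage-negative libraries had 0.068 to 0.105. Between them lay AML replicates 5 and 6, with 29.1% and 23.6% of genes at 0 and 0.304 and 0.843 counts per kb. Over all genes kept, the median log2 difference between AML and whole marrow was 0.67, and it was −0.01 once libraries were scaled by TMM, the trimmed mean of M values. TMM results are therefore given beside the deposited scaling. AML replicate 3 also stood apart: its summed B cell markers reached 119100 normalized counts, against 6465 to 15630 in the other AML libraries. The gene Ighm, for the heavy chain of IgM, made up 108500 of that sum, and the other 9 B cell genes summed to 10570 in replicate 3 and to at most 5900 in the others. The cell type markers matched the labels in part. Summed neutrophil markers were 743.8 to 16810 in lineage-negative marrow and 428100 to 1144000 in whole marrow. Eosinophil markers were not depleted alike, with 7018 to 32950 and 17060 to 38260. No listed marker was at 0 in all libraries of a group.

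The RefSeq table of gene starts (GRCm38.p6) held windows for 7 of the 9 receptors, and Ccr6 had 2 of the 8 windows. The 250 bases upstream of the start are shown for the 3 receptors called higher in AML than in both normal groups, and for Cxcr4 because its window differs most from them in base composition. Capitals mark matches on either strand. The letters GAGGAA were searched as the PU.1 type of ETS site, and TGTGGT was searched as the site of RUNX factors. GGGCGG served as the pattern named the GC box, whereas the pattern searched for the TATA box was TATAAA. The interferon response pattern, which allows any base at some positions, was also searched. The windows are chr9:124101933-124102182 (+ strand) for Ccr2, chr9:120068297-120068546 (− strand) for Cx3cr1, chrX:101734148-101734397 (− strand) for Cxcr3 and chr1:128592300-128592549 (− strand) for Cxcr4, each printed 5′ to 3′ on the gene's strand.
Ccr2: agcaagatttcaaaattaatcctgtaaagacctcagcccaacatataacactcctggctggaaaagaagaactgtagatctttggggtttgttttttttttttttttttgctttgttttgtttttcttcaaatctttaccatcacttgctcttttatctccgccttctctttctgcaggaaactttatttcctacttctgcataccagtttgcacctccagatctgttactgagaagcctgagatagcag
Cx3cr1: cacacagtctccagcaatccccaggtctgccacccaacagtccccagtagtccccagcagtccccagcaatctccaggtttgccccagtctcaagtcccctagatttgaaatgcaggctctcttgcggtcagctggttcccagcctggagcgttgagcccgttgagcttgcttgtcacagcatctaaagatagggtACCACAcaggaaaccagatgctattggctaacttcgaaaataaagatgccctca
Cxcr3: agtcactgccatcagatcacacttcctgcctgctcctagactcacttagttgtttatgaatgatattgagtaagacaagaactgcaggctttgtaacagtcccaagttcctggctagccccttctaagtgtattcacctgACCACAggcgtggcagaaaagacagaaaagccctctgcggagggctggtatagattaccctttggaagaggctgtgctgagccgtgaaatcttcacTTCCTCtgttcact
Cxcr4: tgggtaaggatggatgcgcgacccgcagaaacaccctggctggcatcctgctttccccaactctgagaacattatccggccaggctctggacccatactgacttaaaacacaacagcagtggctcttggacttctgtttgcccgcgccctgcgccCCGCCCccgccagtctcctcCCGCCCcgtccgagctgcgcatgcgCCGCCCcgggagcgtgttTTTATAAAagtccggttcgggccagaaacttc
The Ccr2 window had 37.2% GC, 1 CG dinucleotide and none of these letters. The Cx3cr1 window (53.6% GC, 4 CG) held a RUNX match 54 to 49 bases before the start. The Cxcr3 window (48.0% GC, 3 CG) held a RUNX match at 110 to 105 and an ETS match at 14 to 9. The Cxcr4 window had 61.2% GC and 19 CG, against medians of 52.4% and 6 over 32851 windows. It held 3 GC boxes and 2 overlapping TATA matches, the nearer ending 25 bases before the start. Among all windows, 23.3% held the ETS letters, 14.0% RUNX, 32.7% a GC box, 12.4% a TATA box and 2.98% the interferon pattern. Of the other windows, Ccr1 (43.6% GC) held 1 ETS and 1 RUNX match, Ccr6 an ETS match in 1 of 2 windows, and Ccr9 none. The interferon pattern was in no window of a receptor. These matches are descriptions of letters, and binding was not measured.

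All 9 receptors were called higher in AML than in lineage-negative marrow, the call of Ccr6 being lost under several settings given with its values, and most were lower in lineage-negative than in whole marrow. Against whole marrow, 3 were higher in AML: Ccr2, Cx3cr1 and Cxcr3. A call required an adjusted p under 0.05 (limma, Benjamini-Hochberg over the genes kept) and a log2 difference of at least 1. In AML against whole marrow, 27.3% of all genes kept were called higher and 11.3% lower, so 3 receptors higher and 0 lower of 9 is near the background. The AML and whole marrow values of 2 receptors, Ccr2 and Cxcr3, did not overlap, with AML above. Of all genes kept, AML lay wholly above for 35.8% and wholly below for 7.88%. Their median log2 difference was 0.28, below the median of all genes. The TMM scaling called 4.73% of genes higher and 16% lower. With it, 1 receptor was higher (Ccr2) and 1 lower (Cxcr5), and the median was −0.41. In AML against lineage-negative marrow, 17.7% of genes were called higher and 12.5% lower, and 9 of 9 receptors were higher under both scalings, with a median of 2.42 beside 0.02 for all genes. Ccr6 is counted there although it passed the filter through the other groups. The AML and lineage-negative values did not overlap for 3 receptors, Ccr1, Ccr2 and Cxcr3, with AML above, while over all genes kept AML lay wholly above for 17% and wholly below for 17.6%. In lineage-negative against whole marrow, 33.1% of genes were called higher and 17.2% lower. There, 0 receptors were higher and 6 were lower, with a median of −1.97 beside 0.59, and the values of 7 did not overlap, lying wholly below whole marrow. Of all genes kept, 16.6% lay wholly below and 41.1% wholly above. With TMM, which called 24.8% of genes lower, 8 receptors were lower. Ccr6 is counted in the 6, the 7 and the 8, although it passed the filter through whole marrow and AML libraries. Its call as lower in lineage-negative marrow was lost under several settings given with its values. The 3 comparisons share groups and are not independent of each other. In bulk RNA, fewer cells of a type and less RNA per cell cannot be told apart.

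**Figure D1:**
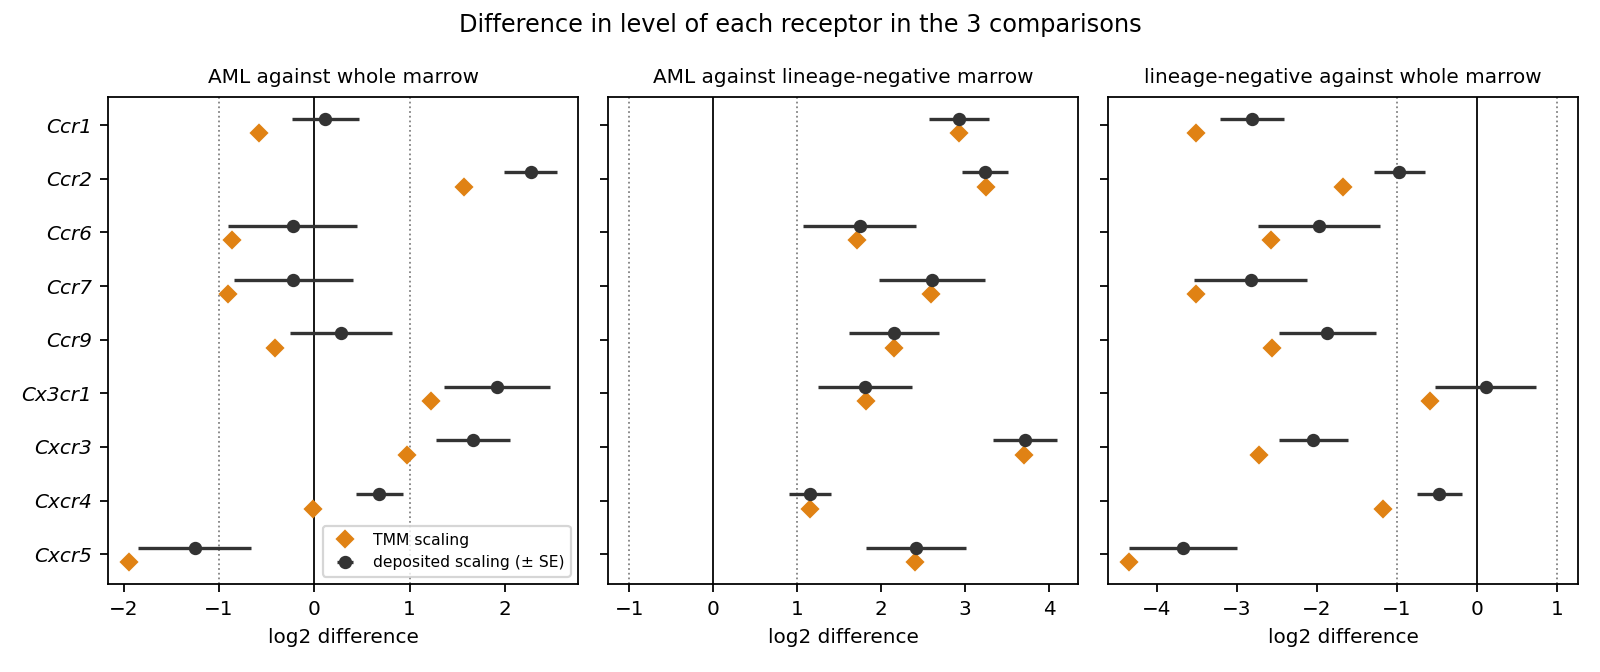
Log2 difference of each receptor in the 3 comparisons, with the standard error of the limma fit on the deposited scaling (circles) and the value after TMM scaling (diamonds). Dotted lines mark a log2 difference of 1 in each direction. In the middle panel all 9 receptors lie to the right of 1 under both scalings, while the left panel shifts by about the median of all genes, 0.67, between scalings.

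Per kb of exon, Cxcr4 had the highest mean level of the 9 in every group, with 4774 normalized counts per kb in AML, 2989 in whole and 2144 in lineage-negative marrow. The next in AML was Ccr2 at 4399, a difference within the spread, since Ccr2 ranged from 2488 to 5876 and Cxcr4 from 2652 to 6181. Ccr1 at 1192 and Cx3cr1 at 744.8 came next and overlapped as well. Cxcr3 at 161.9, Ccr7 at 91.4, Ccr9 at 40.9, Cxcr5 at 25.8 and Ccr6 at 7.89 followed, each overlapping its neighbour in the order. Without AML replicate 3 the means were 42.6 for Ccr7, 12.4 for Cxcr5 and 4.27 for Ccr6, and Ccr9 at 45.3 then stood above Ccr7. In whole marrow the order was Cxcr4, Ccr1 (999.3), Ccr2 (906.8), Cx3cr1 (152.2), Ccr7 (67.5), Cxcr3 (48.9), Cxcr5 (38.5), Ccr9 (24.4) and Ccr6 (5.40). Ccr1 and Ccr2 were close there, and Ccr2 lay above Cx3cr1 with no overlap (531.0 to 1193 against 110.2 to 214.4). In lineage-negative marrow Ccr2 (444.6) came second, ahead of Cx3cr1 (161.0) and Ccr1 (137.6), and the other 5 receptors were at 1.14 to 12.04 per kb.

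Ccr2, the exit receptor of classical monocytes and the receptor for CCL2 and CCL7, had the highest mean of the 9 in normalized counts in AML and in whole marrow, while in lineage-negative marrow Cxcr4 was higher. In AML it had a lowest value of 16821, a median of 31702 and a highest value of 39725. The whole marrow libraries had 3589.8, 7564.9, 8065.6 and 5298.7, and the lineage-negative libraries 2729.9, 3409.7, 2556.8 and 3324.3. The 3 groups did not overlap at any point, with every AML library above every whole marrow library and every whole marrow library above every lineage-negative one. The mean of AML was 29740 ± 9779 (SD, n = 7) against 6130 ± 2078 (n = 4) and 3005 ± 425.2 (n = 4). The difference from whole marrow was 4.83-fold (log2 2.27, SE 0.28, adjusted p 3.16e-06), and 1.57 on the log2 scale with TMM (adjusted p 2.64e-05). It was 1.60 above the median of all genes. From lineage-negative marrow AML differed 9.45-fold (log2 3.24, SE 0.28, adjusted p 1.45e-08). Lineage-negative marrow against whole marrow gave −0.97, which missed the limit of 1 (SE 0.31, adjusted p 0.0109). The TMM value was −1.67 and passed it. Leaving out whole marrow replicate 1 or 4, or lineage-negative replicate 2 or 4, brought the difference to −1.20, −1.02, −1.03 and −1.02, each called.

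Monocyte markers moved with Ccr2 in the comparisons of AML with normal marrow. In lineage-negative against whole marrow 1 was called higher and 2 lower, with a median log2 difference of 0.16 (−0.54 with TMM). Ccr2 was at −0.97 there (−1.67 with TMM). All 9 monocyte genes were called higher in AML than in whole marrow (7 with TMM) and than in lineage-negative marrow (9 with TMM). Their sum was 77240 to 189000 in AML, 21360 to 41680 in whole and 22220 to 41190 in lineage-negative marrow. Per 1000 summed monocyte marker counts, Ccr2 had 141.0 to 337.0 in AML and 158.0 to 226.0 in whole marrow, ranges that overlapped. In lineage-negative marrow it had 66.3 to 115.0, below every library of the other groups. The part of the monocyte markers in the Ccr2 difference was not tested.

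**Figure D2:**
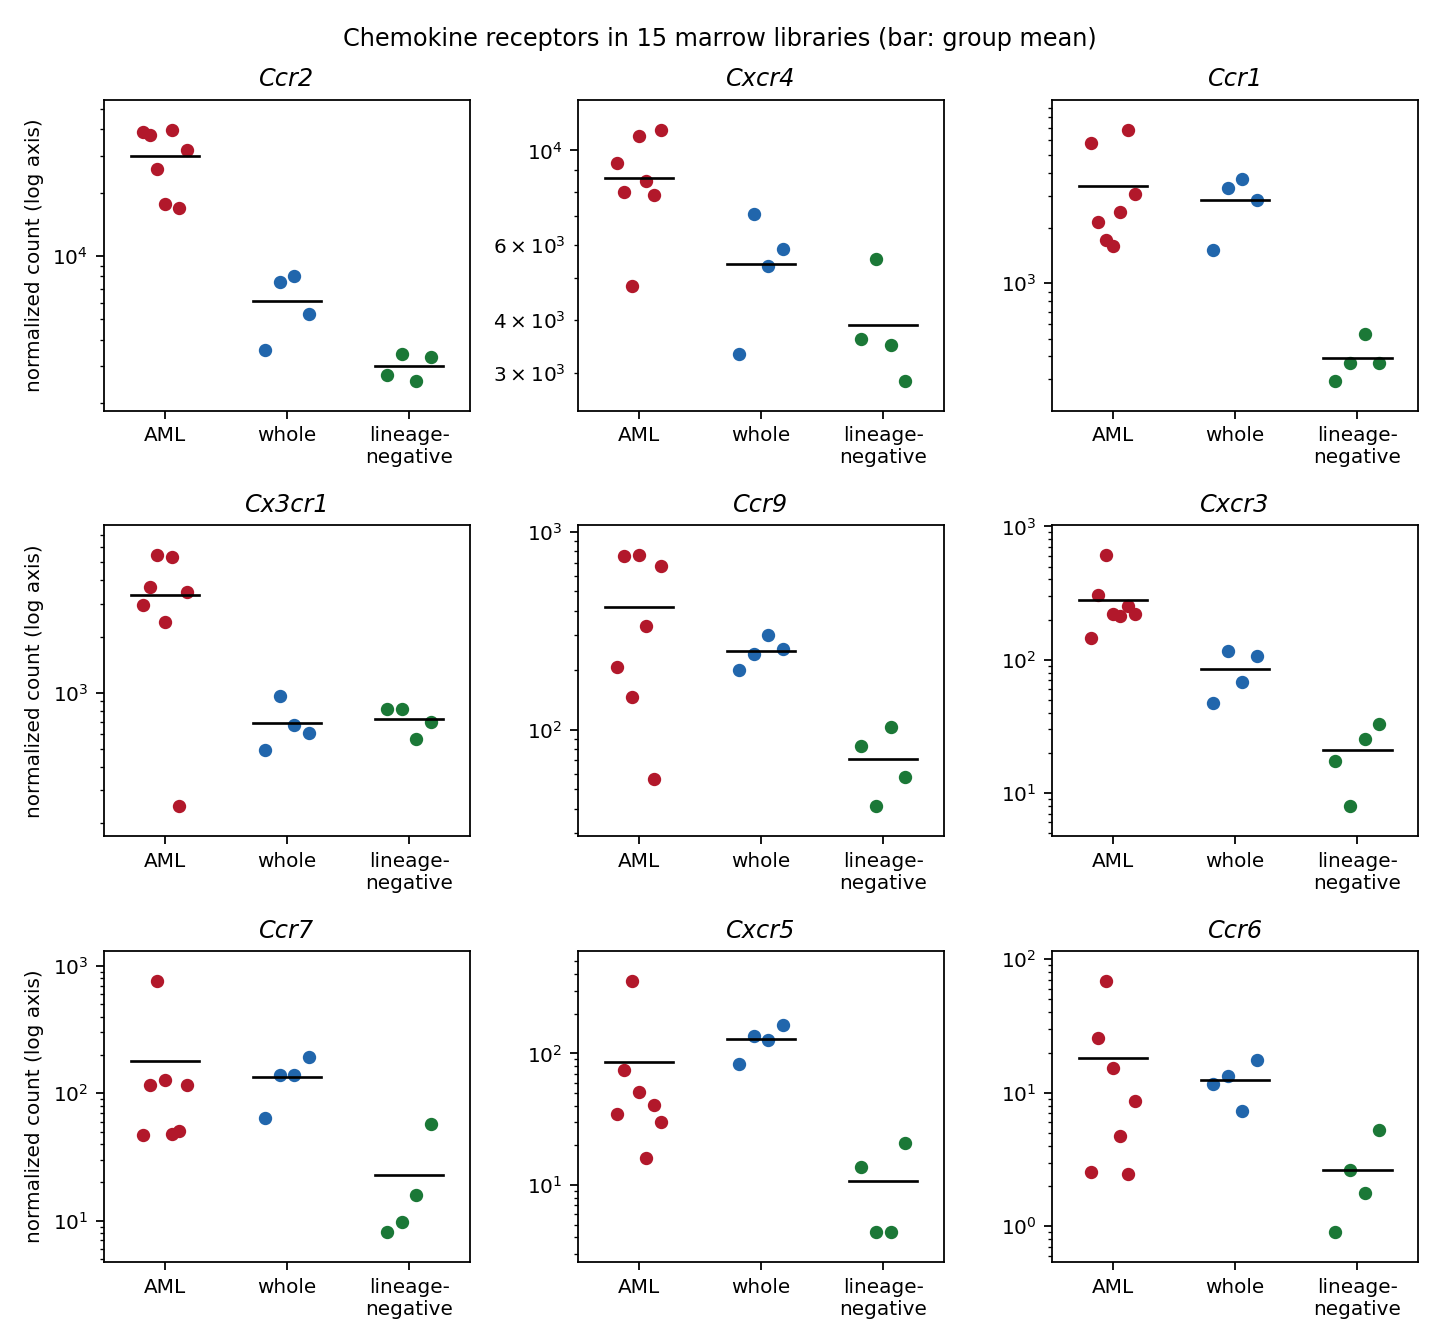
Normalized count (log axis) of each receptor in 7 AML, 4 whole and 4 lineage-negative marrow libraries, each point a library and each bar a group mean. The Ccr2 groups are separate, at 16821 to 39725 in AML, while the AML points of Ccr7 and Cxcr5 hold a single high library (759.8 and 354.2) and those of Cx3cr1 a single low one (246.8).

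Cx3cr1, the fractalkine receptor, was higher in 6 of 7 AML libraries than in every normal library. AML values were lowest at 246.8, with a median of 3445 and a highest of 5436. Whole marrow had 496.3, 966.1, 668.9 and 611.2, and lineage-negative marrow 818.7, 814.3, 569.4 and 699.6. The AML library at 246.8, replicate 6, lay below all 8 normal libraries, and the normal groups overlapped throughout. The AML mean was 3355 ± 1781 (SD, n = 7), against 685.6 ± 200.3 (n = 4) and 725.5 ± 117.8 (n = 4). The difference was 3.78-fold from whole marrow (log2 1.92, SE 0.56, adjusted p 0.00575) and 3.51-fold from lineage-negative marrow (log2 1.81, SE 0.56, adjusted p 0.0119). The call against whole marrow was lost with TMM (log2 1.22, adjusted p 0.106) and with quantile scaling (log2 1.15, adjusted p 0.117). Between lineage-negative and whole marrow the log2 difference was 0.11 (SE 0.63, adjusted p 0.889), which turned to −0.59 with TMM. Per 1000 monocyte marker counts Cx3cr1 was 2.06 in AML replicate 6, 15.7 to 70.4 in the other AML libraries, 18.2 to 23.2 in whole and 19.9 to 26.2 in lineage-negative marrow. Non-classical monocyte markers, those of the patrolling cells, were also followed: 5 of 6 were called higher in AML than in whole marrow (1 with TMM) and 4 higher than in lineage-negative marrow. Their sum was 11930 to 21470 in AML, 4808 to 7087 in whole and 14470 to 22550 in lineage-negative marrow. Spn alone gave 10320 to 15740 of it in AML, 4314 to 6332 in whole and 13790 to 20860 in lineage-negative marrow. In lineage-negative against whole marrow 3 of the 6 markers were called lower and 1 higher, with a median log2 difference of −1.69. The sum was thus mostly Spn. Per 1000 of its counts Cx3cr1 was 19.4 in AML replicate 6, 152.0 to 303.0 in the other AML libraries, at most 136.0 in whole and 36.3 to 50.7 in lineage-negative marrow. The part of patrolling cells in the Cx3cr1 difference was not tested. In AML replicate 6 summed conventional dendritic cell markers were also the lowest of AML, 2022 against 3900 to 19370, as was the stem and progenitor sum, 3656 against 7147 to 12620. These 2 sums are not separate observations, since both contain Flt3, at 870.0 in replicate 6 and 1958 to 4484 in the other AML libraries. The table's row for Cx3cr1 spans 168264 bases of chromosome 9 and overlaps 7 other rows on either strand, and reads of overlapping genes cannot be told apart without the strand setting of the counting.

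Cxcr3, the receptor for CXCL9 and CXCL10 on effector T cells, NK cells and plasmacytoid dendritic cells, was low but higher in every AML library than in every normal one. AML ran from 145.1 through a median of 220.1 to 605.4. Whole marrow had 47.6, 116.6, 67.8 and 106.4, and lineage-negative marrow 17.2, 7.93, 25.6 and 32.6. No group overlapped another. The difference from whole marrow was 3.17-fold (log2 1.67, SE 0.38, adjusted p 0.001). With TMM it was 0.98 on the log2 scale (adjusted p 0.0495), under the limit of 1. From lineage-negative marrow it was 13.1-fold (log2 3.71, SE 0.38, adjusted p 1.78e-07), the widest of the 9 receptors in that comparison. Lineage-negative marrow was 4.13-fold lower than whole marrow (log2 −2.05, SE 0.43, adjusted p 0.000411). T cell markers moved alongside. Of 12, 8 were called higher in AML than in whole marrow (1 with TMM, and 1 lower), and 9 lower in lineage-negative than in whole marrow. Their sum was 1797 to 7361 in AML, 1033 to 1722 in whole and 459.9 to 746.2 in lineage-negative marrow. Cxcr3 per 1000 T cell marker counts overlapped between AML (34.4 to 117.0) and whole marrow (42.6 to 68.7). NK cell markers did not move alike. Of 7, 1 was called higher and 1 lower in AML than in whole marrow (0 and 3 with TMM), with a median log2 difference of −0.52. Of 8 plasmacytoid dendritic cell markers, 3 were higher and 0 lower there (2 and 1 with TMM). The part of these cells in the result was not tested.

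Cxcr4, the retention receptor, was abundant in all groups and varied least among the AML libraries, with an SD of 0.41 on the log2 scale. In AML its lowest value was 4795, its median 8467 and its highest 11176. Whole marrow had 3325, 7072, 5351 and 5871, and lineage-negative marrow 3600, 5547, 3486 and 2874. AML lay above whole marrow in 6 of 7 libraries, the exception being replicate 3. The difference was 0.68 on the log2 scale (SE 0.25, adjusted p 0.0223), below the limit of 1 and 0.01 above the median of all genes. With TMM it was −0.01 (adjusted p 0.963). Against lineage-negative marrow Cxcr4 was 2.22-fold higher (log2 1.15, SE 0.25, adjusted p 0.000788) and 1.16 on the log2 scale with TMM, whereas quantile scaling gave 0.96 and no call. Lineage-negative marrow against whole marrow gave −0.47 (SE 0.28, adjusted p 0.149), and −1.17 with TMM (adjusted p 0.000275), a call. Per 1000 monocyte marker counts Cxcr4 was 47.7 to 92.0 in AML and 150.0 to 175.0 in whole marrow, with no overlap. The lineage-negative range, 87.4 to 179.0, overlapped both. The monocyte sum was itself higher in AML, at 77240 to 189000 against 21360 to 41680 in whole marrow. Stem cells, neutrophils and B cell precursors also carry Cxcr4, so the ratio is not a level per monocyte. The part of monocytes in it was not tested.

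Ccr1, a receptor for CCL3, CCL5, CCL6 and CCL9 on neutrophils, monocytes and progenitors, had like levels in AML and whole marrow. AML ran from 1596 through 2442 to 6842. Whole marrow had 1516, 3294, 3684 and 2831, within the AML range but for the lowest, and lineage-negative marrow 295.0, 370.1, 527.1 and 367.4. The AML difference from whole marrow was 0.11 on the log2 scale (SE 0.35, adjusted p 0.789) and turned to −0.58 with TMM, neither past the threshold. Every AML library lay above every lineage-negative one, 7.61-fold on average (log2 2.93, SE 0.35, adjusted p 1.3e-06). Lineage-negative marrow was 7.03-fold lower than whole marrow (log2 −2.81, SE 0.40, adjusted p 6.85e-06). Neutrophil markers were called lower in lineage-negative than in whole marrow for 10 of 10 genes, and in AML against whole marrow for 0 of 10. Ccr1 per 1000 neutrophil marker counts was 2.36 to 6.97 in AML and 2.88 to 4.22 in whole marrow. It was 17.5 to 498.0 in lineage-negative marrow, where those markers were low. Their part in the Ccr1 difference was not tested.

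Cxcr5, the follicle receptor of B cells and of helper T cells, was low in most AML libraries. AML had a lowest value of 16.05, a median of 40.7 and a highest of 354.2. Whole marrow had 83.5, 136.7, 127.3 and 165.1, and lineage-negative marrow 13.6, 4.41, 4.41 and 20.9. In 6 of 7 AML libraries Cxcr5 lay below all whole marrow libraries, and replicate 3 lay above them all. With all 7, the log2 difference of AML from whole marrow was −1.26 (SE 0.60, adjusted p 0.0723), which was not called. Without replicate 3 the value was −1.72 (SE 0.45, adjusted p 0.00262), and with TMM it was −1.94 (adjusted p 0.0211), both called lower. AML was 5.34-fold above lineage-negative marrow (log2 2.42, SE 0.60, adjusted p 0.00245), and lineage-negative marrow 12.8-fold below whole marrow (log2 −3.67, SE 0.67, adjusted p 0.000101). B cell markers followed the same order: of 10, AML had 7 called lower against whole marrow and 8 called higher against lineage-negative marrow. Their sum was 11930 to 22740 in whole and 3086 to 5361 in lineage-negative marrow. Per 1000 of these counts Cxcr5 was 1.03 to 6.30 in AML, below the 7.00 to 7.46 of whole marrow, and lineage-negative libraries had 1.39 to 4.69. The separation of AML from whole marrow in that ratio rested on Ighm. Per 1000 counts of the other 9 B cell genes, Cxcr5 was 12.8 to 45.1 in AML and 16.8 to 18.5 in whole marrow, which overlapped, with 33.5 in AML replicate 3. The part of B cells in the difference was not tested. The Cxcr5 row overlaps Bcl9l on the other strand.

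Ccr7, which draws lymphocytes and dendritic cells to lymph nodes, showed the same high library. AML ran from 47.1 through a median of 115.4 to 759.8, the last in replicate 3. Whole marrow had 63.7, 138.0, 138.8 and 193.7, and lineage-negative marrow 8.17, 9.69, 15.9 and 57.4. The AML mean of 180.8 ± 257.8 (SD, n = 7) fell to 84.3 without replicate 3. The difference from whole marrow was −0.22 on the log2 scale (SE 0.63, adjusted p 0.77). From lineage-negative marrow it was 6.09-fold higher (log2 2.61, SE 0.63, adjusted p 0.00198), and without replicate 3 the log2 value was 2.14 (adjusted p 0.00112). Lineage-negative marrow was 7.10-fold lower than whole marrow (log2 −2.83, SE 0.71, adjusted p 0.00174), its highest library, 57.4, lying close to the lowest whole marrow library, 63.7. Per 1000 B cell marker counts, Ccr7 in AML (3.08 to 10.3) spanned whole marrow (5.34 to 8.52), and lineage-negative marrow had 1.52 to 12.9. With Ighm left out of the sum, AML lay above whole marrow (19.8 to 71.9 against 13.7 to 19.7), by little at its lowest library, and lineage-negative marrow, at 12.3 to 68.0, overlapped both. In AML against whole marrow 7 of 10 B cell markers were called lower. T cell markers were called higher for 8 of 12 (1 with TMM, and 1 lower), and conventional dendritic cell markers for 7 of 7 (5 with TMM). The part of these cells in the Ccr7 values was not tested.

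Ccr6, the CCL20 receptor of memory B cells and mucosal T cells, was near the detection limit. AML had 2.47 at the lowest, a median of 8.63 and 68.6 at the highest, again replicate 3. AML replicates 1 and 6, at 2.54 and 2.47, were under their floors of 3.82 and 3.70. Whole marrow had 11.7, 13.4, 7.30 and 17.7, and lineage-negative marrow 0.908, 2.64, 1.76 and 5.22, where replicate 4 alone lay above its floor, 1.96. In whole marrow the level was 3.15 to 7.65 per kb, beside 1.72 to 3.30 per kb for the olfactory and vomeronasal genes. AML did not differ from whole marrow past the threshold (log2 −0.23, SE 0.68, adjusted p 0.781). The difference from lineage-negative marrow was 1.75 on the log2 scale (SE 0.68, adjusted p 0.0412), and it was lost without AML replicate 3 (1.30, adjusted p 0.0736). It was also lost with all genes above 0 in the fit (adjusted p 0.093), with AML and lineage-negative marrow fitted alone (0.0742), with quantile scaling (0.331), with a pseudocount of 5 (0.0565), and with a median or mean background subtracted (0.0864 and 0.125). Without AML replicate 2, 4 or 7 the adjusted p was 0.0792, 0.0663 and 0.0511, without lineage-negative replicate 1, 2 or 3 it was 0.121, 0.0684 and 0.0923, and without whole marrow replicate 1 it was 0.0526. Lineage-negative against whole marrow gave −1.97 on the log2 scale (SE 0.76, adjusted p 0.0298). With the median of the olfactory and vomeronasal genes subtracted in each library it was −1.19 (adjusted p 0.223). It was lost as well without whole marrow replicate 1, 2 or 4 (adjusted p 0.0601, 0.0576 and 0.0717) and without lineage-negative replicate 1 or 3 (0.0798 and 0.0618). Over the 11 alternatives other than leaving out a single library, this difference ran from −2.58 to −0.63, and 7 kept the call.

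Ccr9, the CCL25 receptor of thymus and gut homing that plasmacytoid dendritic cells also carry, was spread widely in AML. Its lowest value was 56.7, its median 336.0 and its highest 760.5. Whole marrow had 200.1, 242.5, 301.6 and 256.2, and lineage-negative marrow 82.4, 41.0, 103.3 and 57.4. In AML 4 libraries lay above all whole marrow libraries and 2 below. The difference from whole marrow was 0.28 on the log2 scale (SE 0.54, adjusted p 0.656), and −0.41 with TMM. AML was 4.45-fold above lineage-negative marrow (log2 2.15, SE 0.54, adjusted p 0.00261), with 6 of 7 libraries above all 4. Lineage-negative marrow was 3.65-fold lower than whole marrow (log2 −1.87, SE 0.60, adjusted p 0.011). Of 8 plasmacytoid dendritic cell markers, 6 were called higher in AML than in lineage-negative marrow and 3 higher than in whole marrow (2 with TMM, and 1 lower). Their sum was 2468 in AML replicate 6, which had the lowest Ccr9, and 6316 to 15040 in the other AML libraries. It was 2936 to 5836 in whole and 3309 to 4053 in lineage-negative marrow, where Tcf4 was its largest part (1584 to 1706). In lineage-negative against whole marrow 4 of the 8 markers were called lower and 1 higher, with a median log2 difference of −2.45. With TMM 5 were lower and 0 higher. The part of these cells in the result was not tested. The Ccr9 row spans 105892 bases and overlaps 5 other rows.

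Ratios of 2 receptors in the same library do not depend on the size factor, and 9 such tests were made. Ccr1 to Ccr2 was 0.0574 to 0.407 in AML, 0.422, 0.435, 0.457 and 0.534 in whole marrow, and 0.108, 0.109, 0.206 and 0.111 in lineage-negative marrow. All 7 AML libraries lay below all 4 whole marrow libraries, a 4.46-fold difference (log2 −2.16, exact two-sided permutation p 0.00606, adjusted p 0.0182). That is the smallest p that 7 against 4 allowed here. AML and lineage-negative marrow did not differ past the threshold (log2 −0.31, exact permutation p 0.576). Lineage-negative marrow lay below whole marrow in all libraries (log2 −1.84, exact permutation p 0.0286, adjusted p 0.0429), the smallest p that 4 against 4 allowed. Ccr2 to Cx3cr1 was 4.78 to 67.9 in AML with a median of 9.20, and 7.22, 7.82, 12 and 8.66 in whole marrow. The log2 difference was 0.35 (exact permutation p 0.758), and −0.08 without AML replicate 6, the library at 67.9. In lineage-negative marrow that ratio was 3.33, 4.18, 4.48 and 4.75, below all 7 AML libraries (AML against it, log2 1.43, exact permutation p 0.00606, adjusted p 0.0182) and below whole marrow (log2 −1.08, exact permutation p 0.0286, adjusted p 0.0429).

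Cxcr4 was also set against Cxcr2, the receptor of neutrophil exit. Cxcr2 itself was 1442 to 10236 in AML, with its highest values in replicates 1 and 6. It was 3124 to 7149 in whole and 215.4 to 370.2 in lineage-negative marrow. Cxcr4 to Cxcr2 was 1.06, 0.996, 0.749 and 1.04 in whole marrow and 11.4, 23.7, 9.39 and 13.3 in lineage-negative marrow, which did not overlap (log2 3.83, exact permutation p 0.0286, adjusted p 0.0429). AML lay below lineage-negative marrow in 7 of 7 libraries (log2 −2.48, exact permutation p 0.00606, adjusted p 0.0182). Against whole marrow AML split. Replicates 2, 3, 4, 5 and 7, at 2.60 to 6.51, lay above all 4 whole marrow libraries, and replicates 1 and 6, at 0.911 and 0.789, lay within their range. The log2 difference was 1.35 with an exact permutation p of 0.0788 (adjusted p 0.101). Without replicate 1 it was 1.59 and without replicate 6 it was 1.63, each with an exact permutation p of 0.0381. These p-values are not adjusted. Each leaves out a library that lay within the whole marrow range, which by itself widens the difference. With all 7 AML libraries the ratio did not pass the threshold. Neutrophil markers summed to 1382000 in replicate 1 and 981100 in replicate 6, the highest of AML, against 397600 to 730900 in the others.

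**Figure D3:**
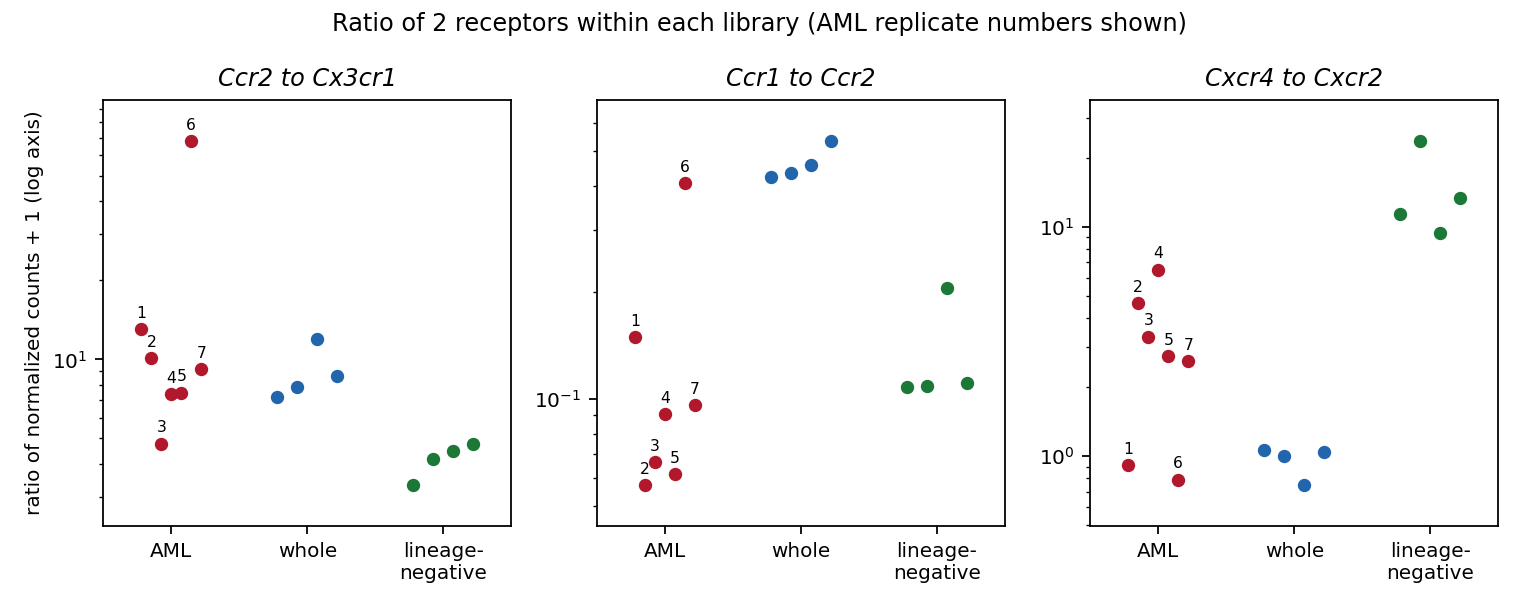
Ratio of 2 receptors in each library on a log axis, for AML (replicate numbers above the points), whole and lineage-negative marrow. In the middle panel the AML points, up to 0.407, lie below all whole marrow points, from 0.422, and in the right panel AML replicates 1 and 6 lie with whole marrow near 1.

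Among the AML libraries the receptors varied by very different amounts. The highest library exceeded the lowest 2.33-fold for Cxcr4 and 2.36-fold for Ccr2. For Cx3cr1 it was 21.9-fold, for Cxcr5 20.8-fold, for Ccr6 20.1-fold, for Ccr7 15.8-fold and for Ccr9 13.2-fold. In whole marrow the corresponding span was 1.5-fold for Ccr9 to 3.01-fold for Ccr7. Relative to the AML median on the log2 scale, replicate 3 was at 3.09 for Cxcr5, 2.85 for Ccr6, 2.71 for Ccr7 and 1.46 for Cxcr3, beside 3.10 for the B cell marker sum (2.51 without Ighm), 1.57 for T cell and 1.43 for conventional dendritic cell markers. The T cell sum was highest in replicate 6, at 1.65, where Cxcr3 was at 0.20 and Ccr7 at −1.17. Replicate 3 was at −0.82 for Cxcr4 and −0.95 for the monocyte sum. Replicate 6 was at −3.80 for Cx3cr1 and −2.55 for Ccr9, beside −2.0 for the plasmacytoid and −1.83 for the conventional dendritic cell sum, and at 1.49 for Ccr1. Replicate 1 was at 1.25 for Ccr1, beside 1.10 for the neutrophil sum. Whether these cells account for the spread was not tested.

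**Figure D4:**
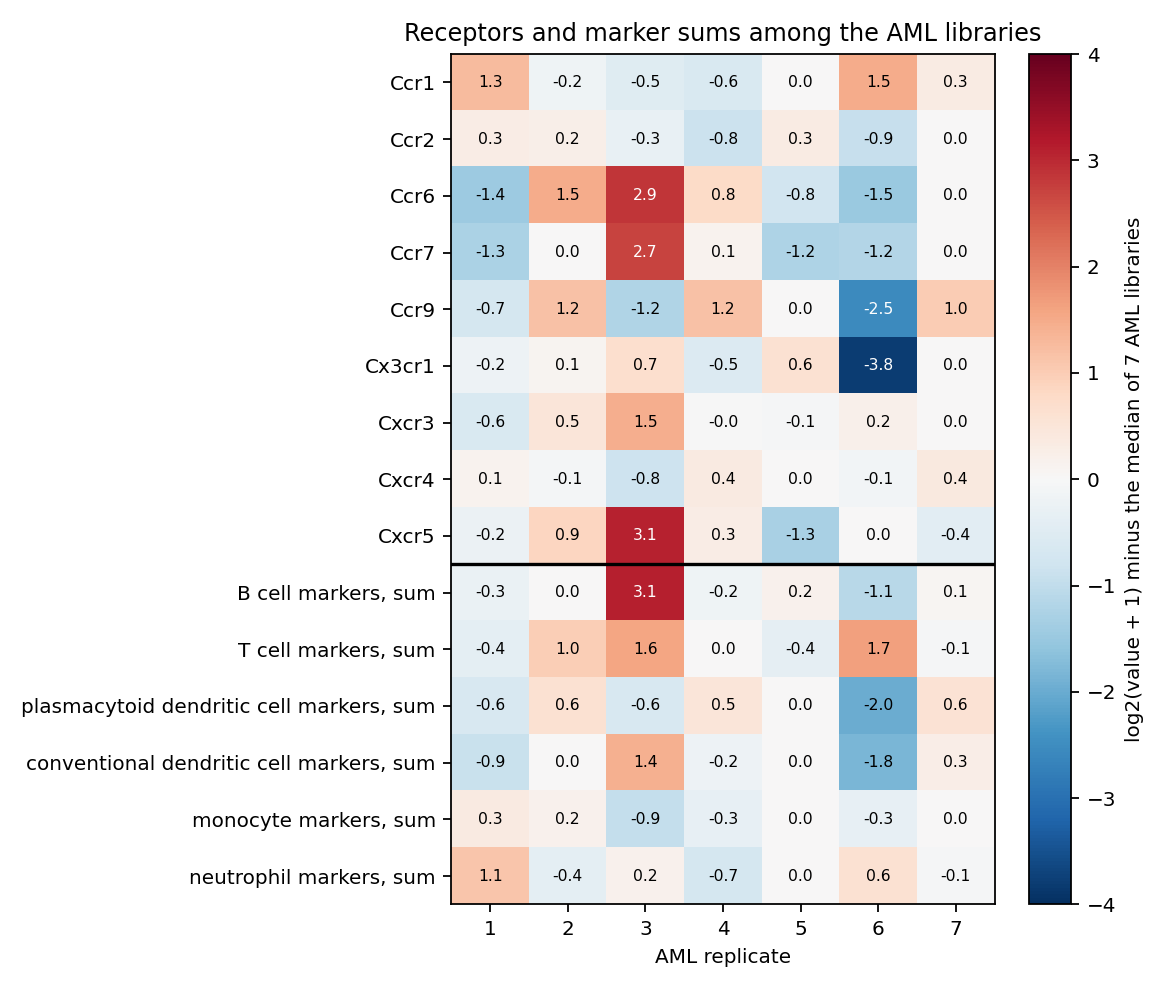
Each AML library's log2(value + 1) minus the median of the 7 AML libraries, for the 9 receptors (above the line) and 6 sums of cell type markers (below it). Replicate 3 has the highest values of Ccr6, Ccr7, Cxcr3, Cxcr5 and the B cell sum, and replicate 6 the lowest of Cx3cr1, Ccr9 and both dendritic cell sums.

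Ccr9, Ccr1 and Ccr2 belong to the chemokine receptor cluster of chromosome 9, where the table places them at 123507504 to 123613395, 123762161 to 123768729 and 123901987 to 123913594. These positions are not on the coordinates of the GRCm38.p6 windows, where the window upstream of Ccr2 ends at 124102182. Neighbours in that cluster gave different calls. Xcr1, the receptor of cross-presenting dendritic cells, was higher in AML than in whole marrow (log2 2.41, adjusted p 0.00156), with 1230 in replicate 3 and 64.9 to 171.5 in the other AML libraries. Ccr3, the eotaxin receptor of eosinophils, lies between Ccr1 and Ccr2 and was lower (12.4 ± 10.7 against 355.5 ± 119.8, log2 −4.93, adjusted p 7.68e-08), beside eosinophil markers of 406.7 to 1406 in AML and 17060 to 38260 in whole marrow. Cxcr6 was not called in either AML comparison (log2 0.50 and 0.51, the former below 0 with TMM). The remaining receptors lie elsewhere: Cx3cr1 and Cxcr5 on chromosome 9 outside the cluster, Cxcr4 on 1, Ccr7 on 11, Ccr6 on 17 and Cxcr3 on X.

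Of 15 other chemokine receptors, 12 were kept. Against whole marrow 3 were higher in AML, among them Xcr1 and Ccr8, and 4 lower (Ccr3, Ackr1, Ccrl2 and Ackr4), with a median log2 difference of −0.09. Of all genes kept, 27.3% were called higher there and 11.3% lower. Ccr8 passed the filter through AML alone. It averaged 37.1 in AML, 1.79 in whole marrow, under the floors of 3 reads (2.69 to 4.09), and 2.10 in lineage-negative marrow. With TMM the same genes were called, and Cxcr2 was lower as well. Ackr1, a scavenging receptor of erythroid cells and endothelium, was at 7.72 in AML and 175.9 in whole marrow (log2 −4.38, adjusted p 7.57e-07). Erythroid markers were lower for 8 of 8 genes in that comparison, with sums of 3138 to 25270 and 628600 to 1537000. Against lineage-negative marrow 5 were higher, Ccr8 included, and 0 lower, with a median of 1.32, beside 17.7% and 12.5% of all genes kept. Cxcr2 (log2 3.63, adjusted p 2.71e-06) and Xcr1 (log2 3.32, adjusted p 0.000107) were among the 5. In lineage-negative against whole marrow 0 were higher and 7 lower, beside 33.1% and 17.2% of all genes kept.

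Ligands of the 9 receptors numbered 19, of which 11 were kept. Against whole marrow 3 were higher in AML and 0 lower: Ccl9, a CCR1 ligand of myeloid cells (5536 against 1198, log2 2.20, adjusted p 1.4e-06), Ccl5 (log2 2.00, adjusted p 0.000993) and Cxcl9, a ligand of CXCR3 (log2 1.52, adjusted p 0.0362). Of all genes kept, 27.3% were called higher there and 11.3% lower, so 3 of 11 higher is near the background. With TMM the Cxcl9 call was lost, and Ccl3 and Cxcl12 were called lower. Against lineage-negative marrow 6 were higher and 2 lower, beside 17.7% and 12.5% of all genes kept. Cxcl9 (log2 4.18), Ccl6 (log2 3.98) and Ccl5 (log2 3.54) were highest, and the inflammatory ligands Ccl3 (72.5 against 1313, log2 −4.26, adjusted p 3.74e-09) and Ccl4 (log2 −3.38, adjusted p 7.88e-06) were lower. Cxcl12, the CXCR4 ligand of marrow stroma, averaged 518.0 in AML, 997.1 in whole and 150.1 in lineage-negative marrow. It was not called in AML against whole marrow on the deposited scaling (log2 −1.41, SE 0.66, adjusted p 0.0685). AML replicate 3, the lowest for Cxcr4, also had the lowest Cxcl12 of AML, 41.7 against 175.2 to 1000.

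Of 24 genes that couple receptors to movement or turn them off, 8 were higher and 0 lower in AML than in whole marrow, with a median log2 difference of 0.93 beside 0.67 for all genes. The shares of all genes kept that were called there were 27.3% higher and 11.3% lower. Grk3, a kinase that desensitises CXCR4 (log2 2.21, adjusted p 8.94e-06), Rgs16, which shortens G protein signals (log2 1.68, adjusted p 0.0161), and Grk5 (log2 1.62, adjusted p 5.98e-05) had the largest differences. With TMM 1 gene, Grk3, was higher and 1, Arrb1, lower, and the median was 0.23. Against lineage-negative marrow 13 were higher and 1 lower, beside 17.7% and 12.5% of all genes kept. The lower gene was Rgs1 (296.4 against 2103, log2 −3.13, adjusted p 9.63e-06). Pik3r5, Grk5 and Rgs14 were the highest there (log2 2.90, 2.67 and 2.41). Of 12 partners in retention and exit, 6 were higher and 2 lower in AML than in whole marrow, beside the same 27.3% and 11.3%. Icam1 (log2 2.06, adjusted p 3.47e-06), Dpp4, the protease that cleaves CXCL12 (1687 against 460.5, log2 1.66, adjusted p 0.00123), and Itgal (log2 1.39, adjusted p 0.000282) had the largest differences. S1pr1, the receptor of lymphocyte exit (log2 −1.54, adjusted p 0.0126), and Vcam1, the ligand of the integrin that holds progenitors (log2 −1.06, adjusted p 0.0324), were lower. With TMM 1 gene, Icam1, was higher, and the same 2 were lower. Against lineage-negative marrow 8 were higher and 0 lower under both scalings, beside 17.7% and 12.5% of all genes on the deposited scaling. Itgb2 had the largest difference of the 8 (17430 against 1558, log2 3.54, adjusted p 9.17e-10).

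For each receptor the protein-coding genes of nearest pattern were sought among 10863 candidates, by the root mean square difference of centred log2 values over the 15 libraries. The measure is a description over libraries that share groups. It grows with a receptor's own spread, so its ratio to the SD of the receptor over the libraries is given after it. By that ratio Ccr1 was nearest to its companions, Ppp1r3d (0.253, ratio 0.173) and Gda (0.267, ratio 0.183). Ccr2 followed with Pld4 (0.326, ratio 0.213) and Cysltr1 (0.36, ratio 0.235), and Cxcr3 with Gpr18 (0.422, ratio 0.247) and Cd86 (0.464, ratio 0.271). Cx3cr1 was nearest to Stbd1 (0.459, ratio 0.325) and Kif5a (0.485, ratio 0.344), and Ccr9 to Atp1b1 (0.48, ratio 0.354). Cxcr4, which had the smallest SD of the 9 (0.64), was nearest to Ccng2 (0.228, ratio 0.357) and Itprip (0.251, ratio 0.393). Close to it by ratio was Cxcr5 with Cd5l (0.643, ratio 0.365) and Tnfrsf13c (0.646, ratio 0.367). Ccr7 was nearest to Rasgrp3 (0.64, ratio 0.384) and Rasgrp1 (0.681, ratio 0.409), and Ccr6 to Snn (0.626, ratio 0.446) and Trim7 (0.659, ratio 0.469).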

How the data were processed

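RNA was isolated with TRIzol and sequenced from TruSeq Stranded Total RNA libraries, per the labels' protocols. The deposited values have a signal unit: estimated counts of reads that the authors scaled by a size factor per library (poscounts, in the table's name), called normalized counts here. STAR, Partek, DESeq2 and the mouse build mm10 are named in the submitters' processing notes, with no versions; the strand setting of the counting is not given in the sources used here. The steps of the low values made 82.0% to 87.1% of them whole multiples within 0.02 of a step, too few for a test of whole reads, so the depths are estimates and floors of 3 reads cover counting error alone. Gene positions are as in the table. Of 38066 identifiers found in GENCODE M21 (GRCm38), 37557 had the same length and 861 the same start. Most of these positions are therefore not on GRCm38. Exonic lengths came from that annotation.

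Genes at 10 or more in at least 4 samples were kept (18941 of 38315), and log2(value + 1) entered a limma fit of 3 group means (limma 3.58.1, R 4.3.3, mean-variance trend, two-sided), adjusted by Benjamini-Hochberg over the genes kept. Calls required an adjusted p below 0.05 with a log2 difference of 1 or more in either direction. The script was tested on simulated data. Ratios of receptors were compared by exact two-sided permutation tests (scipy 1.17.1), with values of the 9 tests adjusted together.

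The 9 receptors, the pathway and marker lists and the alternatives were chosen with earlier results of these data known. The text names every receptor, the genes called in each pathway list with the 3 largest and the 3 smallest log2 differences, and for each receptor the 2 genes of nearest pattern. Cxcr6 and Arrb1 were named after their values were seen. Some results under this rule are not reported here. Alternatives were pseudocounts of 0.1 and 5, all genes or only those with a mean of at least 50, TMM or quantile scaling, pairs of groups alone, array weights, the replicate number as a block, subtraction of a median receptor background, and leaving out each library. Subtraction of a mean background, leaving out AML replicates 5 and 6 together, the B cell sum without Ighm and the ratio of Cx3cr1 to non-classical monocyte markers were chosen after seeing the data.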

Additional observations from a re-analysis of the deposited data

Results flagged for a closer look

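On the log2(value + 1) scale, in 27 combinations of a receptor and a group, 3 libraries lay farther from the rest of their group than Dixon's 95% criterion allows; chance alone flags about 1 group in 20. Ccr7 in AML replicate 3 was 759.8 normalized counts, and the gap to the next library on that log2 scale was 0.644 of the range of the AML group, against a critical share of 0.568. Cx3cr1 in AML replicate 6 was 246.8, with a gap of 0.733 of the log2 range. Cxcr4 in AML replicate 3 was 4795, with a gap of 0.583 of the log2 range.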

How the results depend on the processing

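Of 843 differences and ratios under other settings, 750 kept their direction and side of the threshold, 51 lost a call, 15 gained one and 27 changed sign. The lost calls were those of Ccr6, of the ratios in lineage-negative against whole marrow, and of Cx3cr1, Cxcr3 and Cxcr4 under TMM or quantile scaling. Members called in AML against whole marrow numbered 2 with TMM to 4 with array weights, against lineage-negative marrow 7 with quantile scaling to 9, and in lineage-negative against whole marrow 5 to 8. Changes of sign concerned differences that were not called. For AML against whole marrow, Ccr1 was −0.58 with TMM, −0.65 with quantile scaling, −0.29 with array weights, −0.15 with the replicate block, −0.082 without AML replicates 5 and 6 together, and −0.16 to 0.27 leaving out each library. Ccr6 was 0.27 with quantile scaling, 0.042 with array weights, 0.48 with the replicate block, 0.46 and 0.44 with a median or mean background subtracted, 0.30 without AML replicates 5 and 6, and −0.67 to 0.051 leaving out each library. Ccr7 was 0.30 with the replicate block and 0.22 without those replicates. With TMM and quantile scaling, Ccr9 was −0.41 and −0.51, and Cxcr4 −0.014 and −0.089. Cx3cr1 in lineage-negative against whole marrow was −0.59 with TMM, −0.62 with quantile scaling, −0.13 with array weights and −0.031 to 0.288 leaving out each library. The log2 ratio of Ccr2 to Cx3cr1 in AML against whole marrow was −0.081 to 0.557 leaving out each library. The cause of these changes was not tested. With 3 libraries on a side, lineage-negative against whole marrow ratios could not go below an exact permutation p of 0.0571. Ccr6 was absent from the fit of genes with a mean of at least 50.

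The replicate numbers are not stated to pair the samples. Deviations of libraries with the same number correlated at −0.288 to 0.171. Libraries with different numbers were not compared, so these values cannot decide whether samples were paired. With the replicate block the members called were 3, 9 and 6, as without it. Numbers 5, 6 and 7 occur in AML alone, so these libraries drop out of the AML differences with that block. Every AML difference given with the replicate block therefore rests on AML replicates 1 to 4. Ccr6 lay at or under the floor of 3 reads in 3 of 4 lineage-negative libraries and under it in 2 of 7 AML libraries, so differences at that level could not be resolved.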

Other observations

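Across the 7 AML libraries, 36 pairs of receptors were compared on the log2 scale. None passed an adjusted p of 0.05 (Benjamini-Hochberg, exact permutation tests), while 9 pairs had an unadjusted p under 0.05 by Pearson's r and 4 by Spearman's rho. Ccr6 and Ccr7 had the highest r, 0.929 (exact permutation p 0.00357, adjusted p 0.128), with rho 0.857 (exact permutation p 0.0238, adjusted p 0.398), and r was 0.925 without the 2 libraries farthest from the Ccr6 median. Ccr1 and Ccr6 had r −0.819 (exact permutation p 0.0248, adjusted p 0.128) and rho −0.857 (exact permutation p 0.0238, adjusted p 0.398). Without the 2 libraries farthest from the Ccr1 median, r was −0.625. In both pairs the Ccr6 values of AML replicates 1 and 6 lay under the floor of 3 reads.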
